A study of Mus musculus with 8 samples.

Results

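The histone genes that lie in clusters on mouse chromosomes 3, 6, 11 and 13 were followed in dermal fibroblasts transfected with miR-127-3p mimic. They are the genes whose current or older symbol belongs to the clustered H1, H2A, H2B, H3 and H4 families, such as H2bc4, formerly Hist1h2bc. The RefSeq table used for names lists 70 such genes. Of these, 40 had a probe on the array, among 21368 gene symbols with a probe, and 33 were bright enough to be tested. The choice used symbols alone and no measured value. The cells came from the skin of newborn C57BL/6 mice and were grown as primary cultures. In 4 samples (numbers 2, 4, 5 and 7) they received the mimic, a synthetic RNA that takes the place of that microRNA in its mature form, and in 4 samples (numbers 1, 3, 6 and 8) they received control oligonucleotides. Both groups were transfected, so no untransfected samples enter the comparison. The labels do not say whether samples came from separate mice or cultures, so p-values measure the spread between samples, which may be technical.

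DNA in the nucleus is wound around a core built from the histones H2A, H2B, H3 and H4, and the linker histone H1 binds where the DNA enters and leaves that core. Most of this protein is made while DNA is being copied, in S phase, from clustered genes that carry many near-identical copies. Their messengers usually end in a stem-loop in place of a poly(A) tail, and the stem-loop binding protein Slbp carries them through processing and translation. Some clustered genes can also give polyadenylated messengers, and a few are testis histones. The labelling kit named in the labels copies RNA from its poly(A) tail, so the array reads what that step captured of each messenger. How much of it was tailed or stem-loop RNA was not measured. The mature sequence of the microRNA that the mimic stands for is shown, from RefSeq (GRCm38.p6), with its seed (bases 2 to 8), the stretch that pairs with target messengers, in capitals:
mmu-miR-127-3p: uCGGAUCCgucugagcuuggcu

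All 8 arrays lay on 1 slide, with samples 1 to 4 in slide row 1 and samples 5 to 8 in slide row 2. Between 20756 and 23472 probes per mimic array were well above background, against 20886 to 22638 per control array. All 10 fibroblast markers, among them Col1a1, Col1a2 and Vim, were well above background on every array. Of these 2 rose (Dcn and S100a4) and 2 fell (Col3a1 and Pdgfra), close to the 15.9% and 18.3% of all features that did so. Groups overlapped for Dcn and Col3a1, whose calls were lost in 7 and 8 of the 19 alternative settings. Values below are log2 signals relative to each array's 75th percentile, and log2 fold changes or differences are mimic minus control on that scale with their standard error (SE). Each adjusted p is from limma with Benjamini-Hochberg adjustment over 17093 features, a gene counting as changed below 0.05. The number of arrays limits the precision of each value.

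Most tested clustered histone genes fell with the mimic. Of 33, 31 changed, against 34.2% of all features. Of these 26 fell and 5 rose, against 18.3% of all features that fell and 15.9% that rose. The median log2 fold change of the 33 was -1.25, beside 0.02 over all features. Among those that fell, 22 did so by at least 2-fold, which 3.88% of all features did, and 2 of those that rose changed by as much, against 3.57% of all features. By family, all 3 tested H1 genes, 9 of 10 H2A genes, 6 of 6 H3 genes and 7 of 8 H4 genes fell, whereas in H2B 1 of 6 fell and 4 rose. Family medians were -1.84 for H1, -1.22 for H2A, 0.84 for H2B, -1.22 for H3 and -1.45 for H4. A background correction that draws dim signals together (normexp) gave medians of -1.11, -0.81 and 0.57 for H1, H3 and H2B, which hold dim genes. Of the genes counted at 2-fold or more, H3c7, H3c8, H3c11, H1f1 and H2bc6 changed by less in that setting, while H2ac19 reached it.

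**Figure D1:**
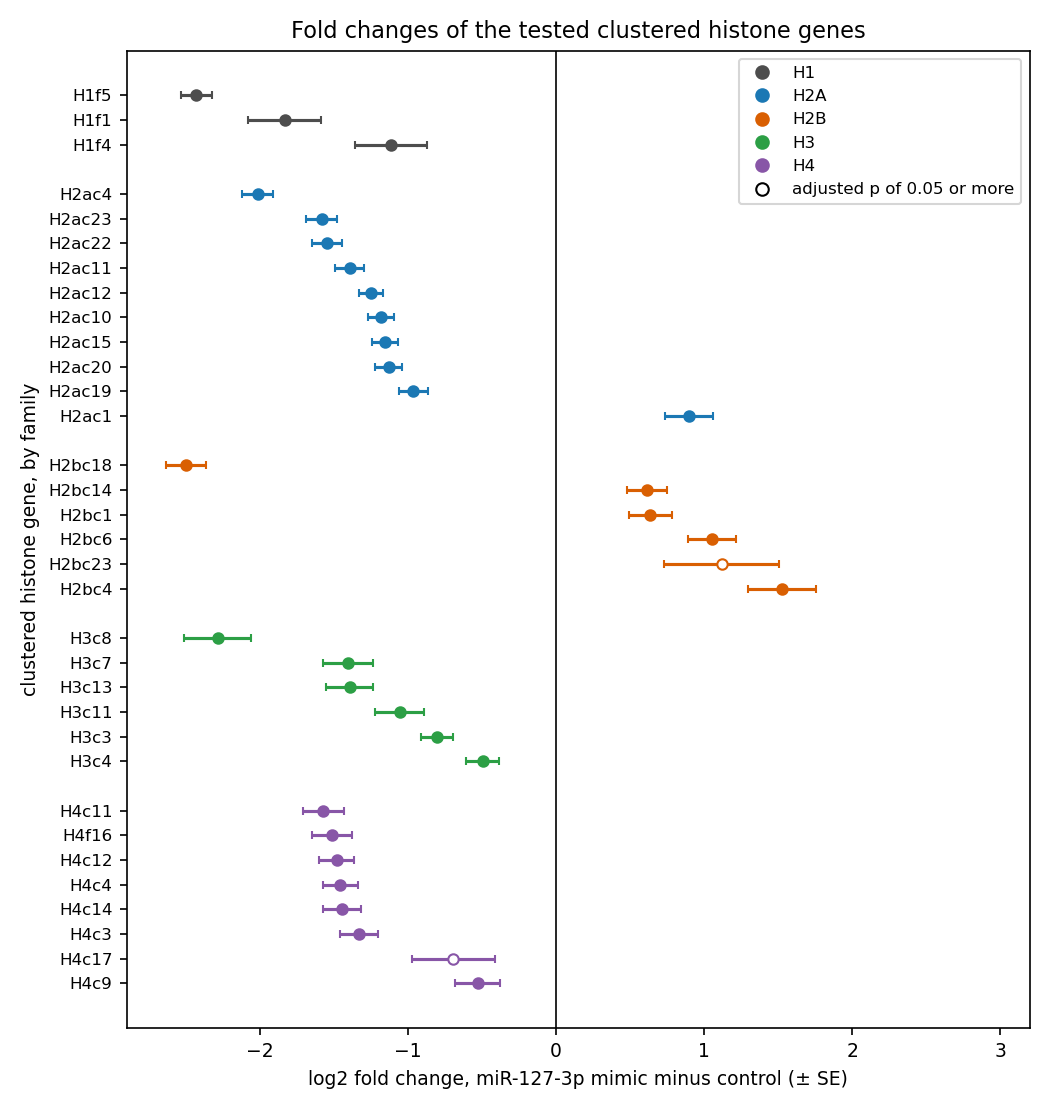
Each point is the log2 fold change (mimic minus control) of a tested clustered histone gene with its SE, grouped by family, and open points are genes with an adjusted p of 0.05 or more. Of 33 genes 26 fell, from -0.50 to -2.50, and the 5 that rose, 4 of them in H2B, lie between 0.61 and 1.53.

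The groups were separate for every gene that changed. In 26 genes all mimic arrays lay below all control arrays, as they did in 19% of all features, and in 5 genes all lay above, as in 15.1%. Either held for 31 genes, and for 34.2% of all features. In the other 2 genes, H2bc23 and H4c17, the groups overlapped. To be tested, a probe had to be well above background on 4 or more arrays. It was so on all 8 for 29 of the 33. The exceptions were H3c8, on 0 of 4 mimic and 4 of 4 control arrays, H1f1 on 3 mimic and 4 control arrays, H2ac1 on 4 mimic and 2 control arrays, and H2bc23 on 4 mimic and 1 control array. H3c8 thus passed through its control arrays alone, and the counts of falling genes include it. The 7 genes with a probe that did not pass were H1f6, H2ac21, H2bc3, H2bc21, H2bc22, H3c1 and H4c8, and the other 30 have no probe matched to them.

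All 3 tested linker histone genes fell. H1f5, which encodes the linker histone H1.5, had 1.83, 1.75, 1.77 and 1.98 on the mimic arrays, against 4.19, 4.11, 4.52 and 4.24 on the control arrays. The mimic arrays lay within 0.23 of each other and over 2 units below the lowest control array. Its log2 fold change was -2.43 (SE 0.11, adjusted p = 1.19e-05), a 5.39-fold lower signal. H1f1, the gene of H1.1, had -1.88, -1.64, -2.57 and -1.57 on the mimic arrays, against 0.00, -0.59, 0.20 and 0.06 on the control arrays. Mimic array 5 was the lowest and control array 3 was the lowest of its group. The log2 fold change of H1f1 was -1.84 (SE 0.25, adjusted p = 0.000878). H1f4, which encodes H1.4, had 3.86, 4.27, 3.24 and 3.77 on the mimic arrays, against 5.11, 4.38, 4.88 and 5.24 on the control arrays. Mimic array 4 came within 0.11 of control array 3, so this gap was the narrowest of the 3. Its log2 fold change was -1.12 (SE 0.25, adjusted p = 0.00887), and within slide row 1 alone it was -0.68 (adjusted p = 0.208).

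Among the H2A genes, which supply a core histone that pairs with H2B, 9 fell by 0.97 to 2.02 on the log2 scale. H2ac4 had 4.85, 4.94, 4.70 and 4.78 on the mimic arrays, against 7.01, 6.61, 6.87 and 6.85 on the control arrays. No array of one group came near the other. Its log2 fold change was -2.02 (SE 0.10, adjusted p = 1.28e-05), 4.05-fold lower. H2ac23 had 7.00, 6.99, 6.77 and 7.00 with the mimic and 8.66, 8.32, 8.65 and 8.48 in controls, a log2 difference of -1.58 (SE 0.10, adjusted p = 2.50e-05). H2ac22 had 7.06, 7.10, 6.80 and 7.19 with the mimic and 8.63, 8.46, 8.70 and 8.56 in controls, a log2 difference of -1.55 (SE 0.10, adjusted p = 2.74e-05). H2ac11 had 7.38, 7.45, 7.15 and 7.39 with the mimic and 8.87, 8.60, 8.80 and 8.68 in controls, a log2 difference of -1.40 (SE 0.10, adjusted p = 3.34e-05). In each of these 3 genes mimic array 5 was the lowest of all 8. H2ac12, H2ac10, H2ac15, H2ac20 and H2ac19 had log2 fold changes of -1.25, -1.18, -1.16, -1.13 and -0.97, also without overlap. The 10th H2A gene, H2ac1, rose and is described with the other rising genes.

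The H3 genes encode a core histone whose tail carries many of the marks that regulate transcription. All 6 tested fell, 5 of them with log2 fold changes from -0.50 to -1.41 and H3c8 by an amount known only as a bound. H3c8 had -3.45, -3.19, -2.61 and -3.60 on the mimic arrays, none of them well above background, against -0.72, -1.18, -0.62 and -1.17 on the control arrays. Its mimic level is therefore a bound, and the gene was at least 2.97-fold lower with the mimic. Its p-value is left out, as the gene was tested only because its control arrays passed the filter. That bound sets the control mean against the lowest signal well above background on each mimic array, or the probe's own signal where that was higher. H3c7 had -1.39, -0.71, -1.36 and -0.89 with the mimic and 0.36, 0.10, 0.47 and 0.34 in controls, a log2 difference of -1.41 (SE 0.17, adjusted p = 0.000465). H3c13 had 2.14, 2.50, 1.89 and 2.21 with the mimic and 3.74, 3.22, 3.64 and 3.72 in controls, a log2 difference of -1.39 (SE 0.16, adjusted p = 0.000346). The spread within each group was under a unit in both genes, and the gap between the groups was 0.81 and 0.72. H3c11 had -2.21, -1.63, -1.79 and -1.89 with the mimic and -0.56, -0.95, -0.64 and -1.15 in controls, a log2 difference of -1.06 (SE 0.17, adjusted p = 0.00183). H3c3 and H3c4 had smaller log2 fold changes, -0.80 (SE 0.11, adjusted p = 0.000807) and -0.50 (SE 0.11, adjusted p = 0.00969). Under normexp, the log2 fold changes of dim genes shrank to -0.92 for H3c7, -0.47 for H3c11 and -0.96 for H1f1. The calls of these genes held. H3c8 came to -0.86 there, which is under 2-fold, so its bound of 2.97-fold holds without that correction only. With slide column as a block, H3c4 lost its call (adjusted p = 0.0504).

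The H4 genes encode 1 protein from many copies, and 6 of the 8 tested lay within a narrow band of log2 fold changes, from -1.33 to -1.57. H4c11 had 1.33, 1.70, 1.15 and 1.68 on the mimic arrays, against 3.08, 2.87, 3.11 and 3.09 on the control arrays. Its log2 fold change was -1.57 (SE 0.14, adjusted p = 9.49e-05). Mimic arrays 2 and 5 were below mimic arrays 4 and 7, and control array 3 was the lowest of its group. H4f16, the only tested gene of the set on chromosome 6, had 4.61, 4.97, 4.47 and 5.02 with the mimic and 6.29, 6.16, 6.38 and 6.30 in controls, a log2 difference of -1.51 (SE 0.14, adjusted p = 0.000105). H4c12 had 6.21, 6.54, 6.17 and 6.58 with the mimic and 7.91, 7.71, 7.96 and 7.86 in controls, a log2 difference of -1.48 (SE 0.12, adjusted p = 6.03e-05). H4c4 had 6.97, 7.32, 6.95 and 7.29 with the mimic and 8.70, 8.43, 8.66 and 8.57 in controls, a log2 difference of -1.46 (SE 0.12, adjusted p = 6.01e-05). In these 3 genes, too, mimic arrays 2 and 5 were the lower ones and control array 3 was the lowest of its group. H4c14 and H4c3 had log2 fold changes of -1.45 and -1.33. H4c9 and H4c17 stood apart from that band. H4c9 fell by 0.53 on the log2 scale (SE 0.15, adjusted p = 0.0270), but did not pass without control array 1, control array 6, mimic array 2 or mimic array 5 (adjusted p between 0.0525 and 0.0683). H4c17 had -2.33, -1.53, -2.24 and -1.38 with the mimic and -0.72, -1.65, -0.89 and -1.44 in controls, and its log2 fold change of -0.69 (SE 0.28) did not pass (adjusted p = 0.0890).

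Among the tested genes, H2B was the family in which rises outnumbered falls. Only 6 of its 19 genes were tested, since 10 have no probe and 3 did not pass the filter. The direction of the untested H2B genes is therefore unknown. The partner of H2B in the core, H2A, has 20 genes, of which 10 were tested and 9 fell. The difference between the families was not tested as such. H2bc18, on chromosome 3, was the only H2B gene that fell, with -0.20, -0.26, -0.32 and 0.06 on the mimic arrays, against 2.47, 1.98, 2.48 and 2.35 on the control arrays. Its signal was 5.66-fold lower with the mimic, a log2 difference of -2.50 (SE 0.14, adjusted p = 1.29e-05). The other 5 tested H2B genes had positive fold changes, and 4 of them passed.

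H2bc4, a gene known in human cells to give polyadenylated messengers beside the stem-loop form, had 4.72, 5.24, 5.40 and 5.13 on the mimic arrays, against 3.85, 4.03, 3.48 and 3.03 on the control arrays. The lowest mimic array was 0.69 above the highest control array. Its signal was 2.88-fold higher with the mimic, a log2 difference of 1.53 (SE 0.23, adjusted p = 0.00146). H2bc6 had -1.0, -0.78, -0.43 and -0.66 with the mimic and -1.61, -1.85, -1.50 and -2.12 in controls, a log2 difference of 1.05 (SE 0.16, adjusted p = 0.00180), 2.07-fold higher. H2bc14 had 4.22, 4.68, 4.76 and 4.65 with the mimic and 3.90, 4.12, 4.07 and 3.79 in controls, a log2 difference of 0.61 (SE 0.14, adjusted p = 0.00916). In H2bc14 mimic array 2 was only 0.11 above control array 3. H2bc1 encodes the testis histone TH2B and H2ac1 the testis histone TH2A. H2bc1 had 3.19, 3.62, 3.77 and 3.70 with the mimic and 2.85, 3.07, 3.07 and 2.74 in controls, a log2 difference of 0.64 (SE 0.15, adjusted p = 0.0103). H2ac1 had -1.82, -1.50, -1.60 and -1.38 with the mimic and -2.37, -2.12, -2.63 and -2.79 in controls, a log2 difference of 0.90 (SE 0.16, adjusted p = 0.00335). Within the groups both testis genes were lowest in mimic array 2 and in control array 8, as were H2bc4, H2bc6 and H2bc14. H2bc23 had -2.20, -1.29, -1.16 and -0.86 with the mimic and -1.98, -3.54, -2.32 and -2.14 in controls. Mimic array 2 lay below control array 1, and the log2 fold change of 1.12 (SE 0.39) did not pass (adjusted p = 0.0539). It passed with slide row as a block (adjusted p = 0.0423) and, at 1.39, without mimic array 2 (adjusted p = 0.0243). Under normexp it was 0.36 and did not pass (adjusted p = 0.264). H2bc23 was well above background on 4 mimic arrays and 1 control array, so its mimic arrays alone met the filter. Passing in some settings is therefore no support for a rise.

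**Figure D2:**
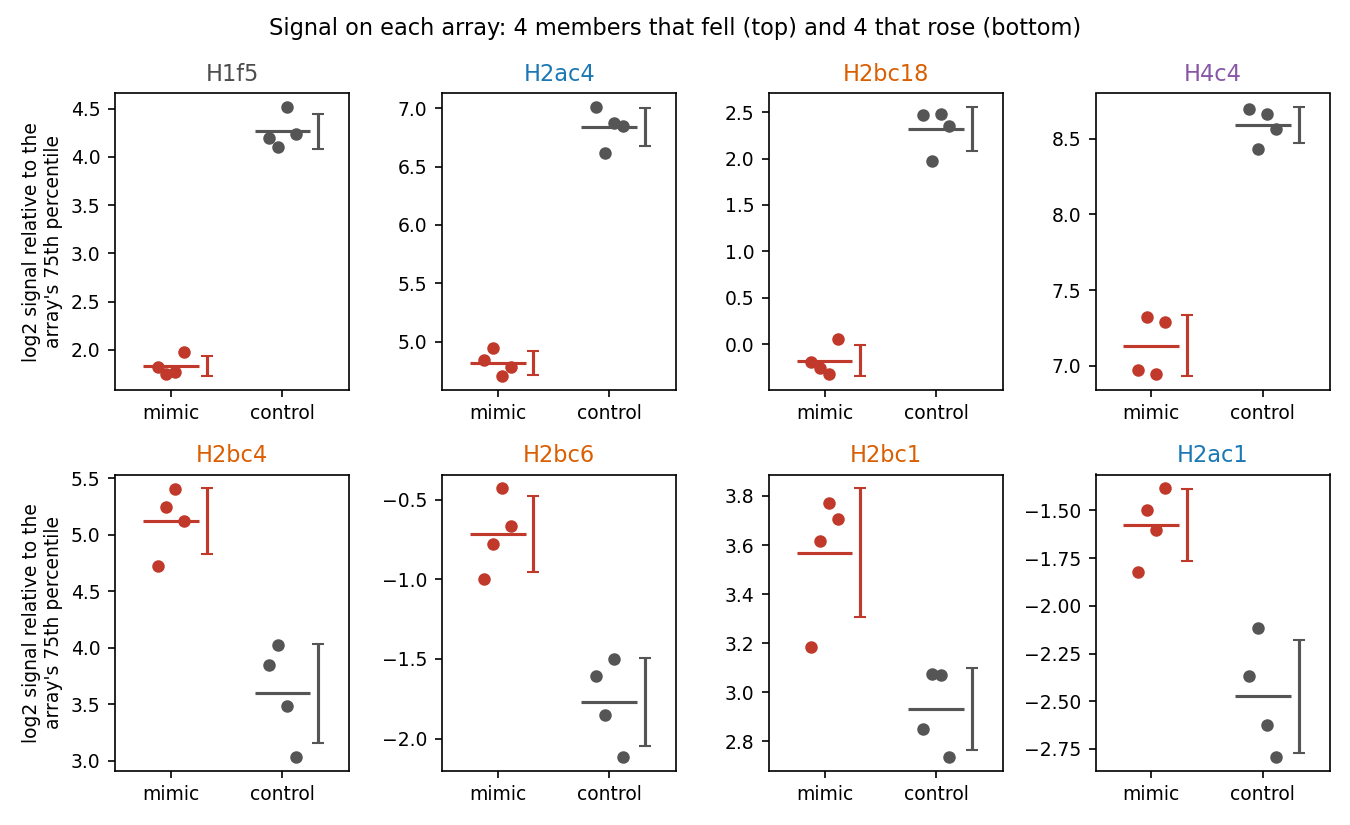
Each panel shows 1 gene, with a point per array (mimic left, control right), a line at the group mean and a bar of 1 SD (n = 4 each). The vertical axis is the log2 signal relative to the array's 75th percentile and differs between panels. H1f5, H2ac4, H2bc18 and H4c4 lie lower with the mimic by 1.46 to 2.50, and H2bc4, H2bc6, H2bc1 and H2ac1 lie higher by 0.64 to 1.53, with no overlap in any panel.

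Within the slide rows, which leave 2 arrays per group, every tested gene kept its sign. In row 1, 19 fell and only H2bc6 rose, where 5.75% of all features fell and 4.43% rose. In row 2, 23 fell and 3 rose, namely H2bc4, H2ac1 and H2bc23, where 5.41% of all features fell and 4% rose. Under normexp the dim rising genes came to 0.56 for H2bc6 and 0.33 for H2ac1, with both calls kept.

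Over all 33 tested genes, the arrays of a group differed by less than the groups did. Set against each gene's control mean, their median was -1.36, -1.06, -1.40 and -1.18 on mimic arrays 2, 4, 5 and 7. On control arrays 1, 3, 6 and 8 it was 0.08, -0.15, 0.12 and -0.03. The falling and rising genes were called by their group difference, so their medians serve only to compare arrays within a group. For the 26 falling genes the medians were -1.53, -1.21, -1.66 and -1.28 on the mimic arrays, against 0.07, -0.16, 0.12 and -0.02 on the control arrays. For the 5 rising genes the same medians were 0.65, 0.98, 0.87 and 1.09 on the mimic arrays, against 0.11, 0.15, 0.10 and -0.32 on the control arrays. The order of arrays was shared between genes. Mimic array 5 was the lowest of its group in 18 of the 26 falling genes, and control array 3 was the lowest of its group in 24 of them. In the 5 rising genes control array 3 was the highest of its group in 4, and control array 8 was the lowest in 5. Mimic array 2 was the lowest of its group in 5 of them. With control array 3 left out, 26 genes fell and 5 rose.

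On chromosome 13, which holds 56 of the 70 genes, 20 of 27 tested genes fell and 5 rose. All 5 tested on chromosome 3 and the single one on chromosome 6 fell. Over all features 18.3% fell and 15.9% rose, so the share that rose on chromosome 13 was close to that of all features. None of the 3 genes on chromosome 11 was tested. Falling and rising genes were interleaved along chromosome 13. In 14 pairs of directly neighbouring members both were tested, and 10 of these moved the same way, 2 moved in opposite directions and 2 held a gene that did not pass. H2bc14 rose by 0.61 beside H4c11, which fell by 1.57, and H2bc6 rose by 1.05 beside H4c4, which fell by 1.46. H2bc23, which did not pass, lies next to H2ac23, which fell by 1.58. H2bc1 and H2ac1 were the only pair of these in which both rose.

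The sequence before the gene start was compared next, because H2A and H2B genes are known to carry an octamer motif that the factor Oct1 binds, and many histone genes carry a CCAAT box and a TATA box. RefSeq windows (GRCm38.p6) of 250 bases before to 50 bases after the start were listed for 62 of the 70 genes. The octamer, searched as ATTTGCAT on both strands, was in 14 of the 62 (22.6%) and in 1.97% of 27025 genes. It was in 7 of 18 H2A and 7 of 16 H2B genes, and in 0 of 6 H1, 0 of 10 H3 and 0 of 12 H4 genes. CCAAT on either strand was in 53 of the 62 (85.5%), against 41.1% of all genes, and the 9 without it were all H4 genes. TATAAA on either strand was in 35 of the 62 (56.5%), against 15.7% of all genes. Matches of the 3 motifs did not overlap in the windows shown.

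The 5 windows below are those of the rising genes with an entry, which share the octamer, and of H2bc18, the H2B gene that fell, which holds the octamer as well. Each reads 5′ to 3′ on the gene's strand, with ATTTGCAT, CCAAT and TATAAA, or their reverse complements, in capitals. H2bc6 has more than 1 start listed, and the window shown is the one that holds the octamer. The positions on GRCm38.p6 are chr13:23934187-23934486 (plus strand) for H2ac1, chr13:23934107-23934406 (minus strand) for H2bc1, chr13:21721794-21722093 (plus strand) for H2bc14, chr13:23585921-23586220 (minus strand) for H2bc6 and chr3:96269450-96269749 (plus strand) for H2bc18.
H2ac1: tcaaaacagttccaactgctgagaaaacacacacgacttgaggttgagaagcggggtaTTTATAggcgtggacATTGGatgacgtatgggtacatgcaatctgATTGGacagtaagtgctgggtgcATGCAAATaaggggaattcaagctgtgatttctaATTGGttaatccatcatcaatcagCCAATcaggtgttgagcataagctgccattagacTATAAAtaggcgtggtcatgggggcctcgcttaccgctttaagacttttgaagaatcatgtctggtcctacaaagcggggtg
H2bc1: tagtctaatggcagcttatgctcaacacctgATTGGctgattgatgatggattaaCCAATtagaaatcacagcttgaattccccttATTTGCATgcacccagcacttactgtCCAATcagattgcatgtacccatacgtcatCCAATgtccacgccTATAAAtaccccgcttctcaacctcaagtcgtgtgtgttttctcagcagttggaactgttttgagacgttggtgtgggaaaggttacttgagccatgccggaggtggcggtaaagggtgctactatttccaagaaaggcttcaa
H2bc14: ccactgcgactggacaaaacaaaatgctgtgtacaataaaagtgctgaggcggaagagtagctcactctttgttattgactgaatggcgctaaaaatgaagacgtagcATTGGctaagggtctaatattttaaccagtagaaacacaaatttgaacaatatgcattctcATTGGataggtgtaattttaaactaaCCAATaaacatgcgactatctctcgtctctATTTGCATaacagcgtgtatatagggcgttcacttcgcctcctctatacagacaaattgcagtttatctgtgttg
H2bc6: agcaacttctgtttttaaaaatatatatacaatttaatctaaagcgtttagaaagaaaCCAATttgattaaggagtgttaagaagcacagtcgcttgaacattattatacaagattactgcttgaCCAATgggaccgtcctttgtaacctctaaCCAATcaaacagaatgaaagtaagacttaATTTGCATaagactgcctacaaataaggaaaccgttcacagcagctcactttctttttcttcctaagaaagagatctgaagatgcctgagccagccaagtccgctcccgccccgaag
H2bc18: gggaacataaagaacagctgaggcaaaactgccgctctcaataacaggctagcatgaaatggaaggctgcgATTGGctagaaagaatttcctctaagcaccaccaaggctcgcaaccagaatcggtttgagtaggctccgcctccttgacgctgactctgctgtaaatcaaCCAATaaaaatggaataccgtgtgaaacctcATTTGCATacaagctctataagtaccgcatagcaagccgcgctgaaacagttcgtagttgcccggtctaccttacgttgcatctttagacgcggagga

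H2ac1 and H2bc1 point away from each other, and their windows share 220 of 300 bases, so the octamer in both is the same site read on opposite strands. The octamer was in the windows of 4 of 4 rising genes (H2bc14, H2bc6, H2bc1 and H2ac1) and of 4 of 24 falling genes (H2ac20, H2bc18, H2ac12 and H2ac4). Within H2A and H2B, the families that hold it, it was in 4 of 4 rising and 4 of 10 falling genes. H2bc4 had no entry. The log2 fold changes of the tested genes that hold it ran from -2.50 in H2bc18 to 1.05 in H2bc6. CCAAT was in 4 of 4 rising and 20 of 24 falling genes, and TATAAA in 2 of 4 and 14 of 24. These matches are letters in a window and were not tested for binding.

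RefSeq lists more than 1 transcript for 3 of the 33 tested genes, H2bc4, H2bc6 and H2bc23. Their log2 fold changes were 1.53, 1.05 and 1.12, of which that of H2bc23 did not pass and was well above background on 1 control array only. Under normexp the values were 1.45, 0.56 and 0.36. The other 30 have a single transcript listed, and 26 of them fell and 3 rose. Which transcript a probe reads was not determined, since the files hold no probe sequences. For the same reason, signal that a probe takes from near-identical copies of other clustered genes could not be separated, and the values of such genes may overlap. More than 1 tested probe was available for H2ac15, H4c12 and H4c4, and both probes fell in each. The probe not used for the gene had a log2 fold change of -2.06 beside -1.16 for H2ac15, -1.59 beside -1.48 for H4c12 and -1.56 beside -1.46 for H4c4.

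Processing of these messengers needs its own factors, from cleavage beside the stem-loop to decay. Of 22 tested genes of histone messenger 3′ end formation and turnover, 10 fell and 1 rose, with a median log2 fold change of -0.30. Over all features 18.3% fell and 15.9% rose. Slbp, the stem-loop binding protein, had 0.80, 0.64, 0.60 and 0.66 with the mimic and 0.83, 1.12, 1.22 and 1.25 in controls, and fell by 0.43 on the log2 scale (SE 0.11, adjusted p = 0.0161). Control array 1 lay barely above mimic array 2. Slbp was picked for its role after its value was seen, and its call was lost with no filter on dim probes (adjusted p = 0.0711). Snrpf, Snrpd3 and Snrpg, core proteins of the small nuclear ribonucleoproteins, had log2 fold changes of -0.61, -0.71 and -0.48 and passed. The cleavage factor Cstf2 fell by 1.28 on its brightest probe (SE 0.11, adjusted p = 8.42e-05), but its fold changes were -0.27 and -0.24 on the other 2. Without control array 1, 3 or 8 another of its probes was the brightest, and the value was then -0.27, -0.27 and -0.25 (adjusted p = 0.0603, 0.0506 and 0.0699). Lsm10, a part of the U7 particle that guides the cleavage, was the only one that rose, by 0.33 (SE 0.09, adjusted p = 0.0177), and lost its call without mimic array 4 or control array 6 (adjusted p = 0.0526 and 0.0502). Zfp473 and Npat were not tested.

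Histone chaperones escort new histones to DNA, and 19 of 25 tested genes of that list fell while 1 rose, against 18.3% and 15.9% of all features, with a median of -0.62. Asf1b, which hands over H3 and H4, averaged 2.02 ± 0.23 with the mimic and 3.92 ± 0.01 in controls and fell by 1.90 (SE 0.12, adjusted p = 1.87e-05). Chaf1a, the large subunit of the assembly factor CAF-1, fell by 1.46 (SE 0.09, adjusted p = 2.27e-05). Nasp, which holds a reserve of soluble H3 and H4, fell by 1.43 (SE 0.09, adjusted p = 1.93e-05), and Hat1, which acetylates new H4, by 1.37 (SE 0.10, adjusted p = 3.65e-05). Daxx, which deposits the replacement histone H3.3 outside replication, rose by 0.49 (SE 0.10, adjusted p = 0.00580). It averaged 4.31 ± 0.18 with the mimic and 3.82 ± 0.04 in controls.

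Histone genes outside the clusters mostly give polyadenylated messengers, and 9 of 11 tested fell while 0 rose, against 18.3% and 15.9% of all features, with a median of -0.89. Cenpa, the H3 variant of centromeres, fell by 1.98 (SE 0.13, adjusted p = 2.30e-05), averaging 1.73 ± 0.25 with the mimic and 3.71 ± 0.08 in controls. H2az1, an H2A variant found near gene starts, fell by 1.14 and the linker variant H1f10 by 1.15. H1f10 is dim, and its log2 fold change under normexp was -0.64. H2aj fell by 0.89 on its brightest probe, while its other tested probe rose by 0.40 (adjusted p = 0.0461). The genes of the replacement histone H3.3 had log2 fold changes of -0.35 for H3f3a (adjusted p = 0.0275) and -0.26 for H3f3b, which did not pass (adjusted p = 0.0838). The call of H3f3a was lost in 10 of 19 alternative settings. H1f0, a linker histone of resting cells, was well above background on 1 mimic and 3 control arrays, and did not pass (-0.86, adjusted p = 0.0856). Its value was -0.23 under normexp, and it passed without mimic array 5 (-1.13, adjusted p = 0.0243).

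**Figure D3:**
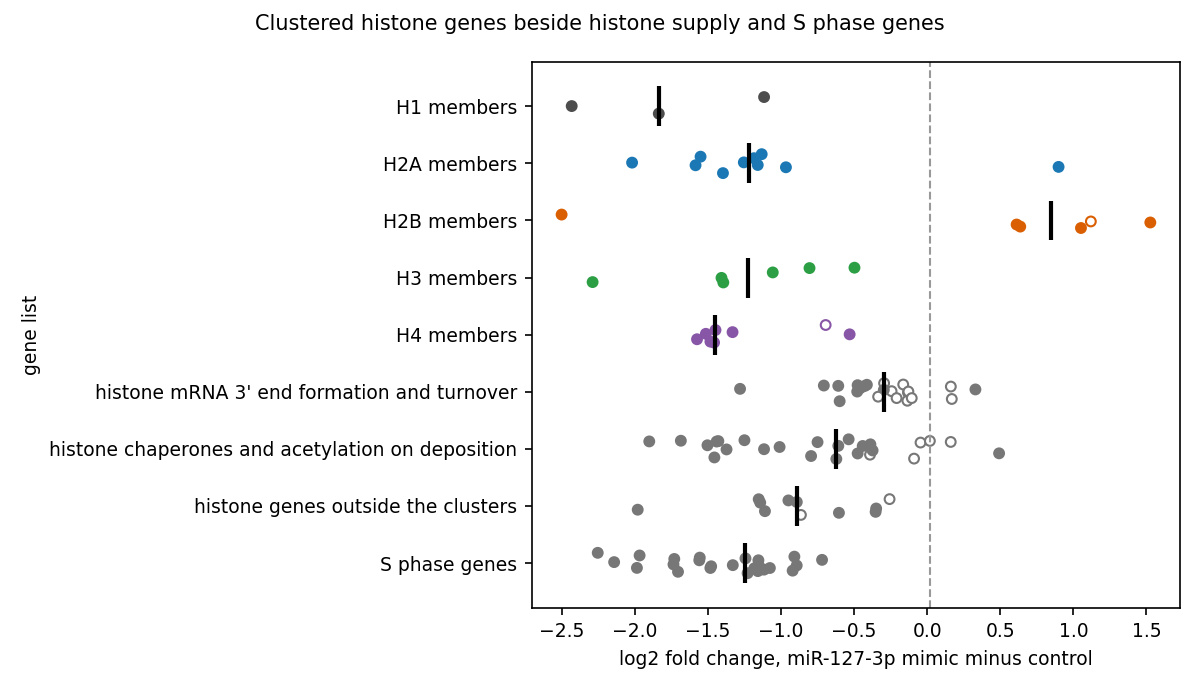
Points are log2 fold changes (mimic minus control) of tested genes, by histone family and by list, with open points for genes that did not pass, a black bar at each median and a dashed line at the median of all features, 0.02. The medians of H1, H2A, H3 and H4 lie between -1.84 and -1.22, that of S phase genes at -1.24, and that of H2B at 0.84.

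Genes of S phase fell with the falling histone families. All 25 tested S phase genes fell and 0 rose, against 18.3% and 15.9% of all features. Their median was -1.24, against -1.25 for the 33 clustered histone genes. Mcm2 is counted here and among the chaperones. Gins1, Mcm5 and Fen1, which act at replication forks, had log2 fold changes of -2.14, -1.98 and -1.48. The part of S phase cells in the histone values was not tested. In these bulk samples fewer cells in S phase and less histone RNA per cell cannot be told apart.

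Markers of other cells in the dish moved as well. Among the markers of macrophages and leukocytes 9 were tested, of which 8 rose and 0 fell, against 15.9% and 18.3% of all features. Their summed signal in units of the array's 75th percentile ranged from 63.9 to 74.9 with the mimic and from 36.1 to 45.3 in controls. In 6 of the 9 markers all mimic arrays lay above all control arrays, as in 15.1% of all features. Fcer1g overlapped between the groups and lost its call in 8 of the 19 alternative settings. Itgam, which made up much of the summed signal, also overlapped and lost its call in 10 of them. Without it the sum was 29.7, 29.7, 16.4 and 26.5 on mimic arrays 2, 4, 5 and 7, against 10.99, 11.08, 11.07 and 11.47 on control arrays 1, 3, 6 and 8, with mimic array 5 the lowest of its group. Ptprc, which marks all leukocytes, was at background throughout. Of the keratinocyte markers 1 of 3 tested rose, and of the endothelial, melanocyte and skeletal muscle markers 0 of 2 tested changed in each. Their part in the histone values was not tested.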

How the data were processed

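Long-oligonucleotide arrays were read in a single dye. Per the file headers, the authors extracted spot intensity values with Agilent Feature Extraction 11.5.1.1. The processed intensity is background-subtracted, and not normalized between arrays. The deposited value table holds log2 values, which differ from the log2 of that intensity by 1 constant on each array, and GeneSpring 14.9.1 was used by the authors, per the labels.

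From these, control and outlier spots were left out, spots of a probe were averaged, and each array's 75th percentile was subtracted from log2(processed signal). No spot was saturated. Of 55681 probes, 28331 matched a symbol through their RefSeq accession in a table of GRCm38.p6. The scanner files used here pair probes with accessions, so symbols come from that table. Members were those with a clustered-histone symbol, current or older, in it. Probes well above background on at least 4 of 8 arrays entered, the brightest probe stood for a gene, and 17093 features were fitted with limma 3.58.1 (R 4.3.3; lmFit and eBayes, two-sided), on all 8 arrays without covariates. The fit was checked on simulated data.

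Genes and lists were chosen with earlier results of these data known. Named members are the 4 called genes per family and direction with the largest change, every rising gene, genes below background in a whole group, and those whose probes disagree in sign, of which there was none. In the lists of 3′ end factors, chaperones, histone genes outside the clusters and S phase they are the 4 with the smallest p and any called against the majority. Markers of cell types were not named by this rule, and further genes were named after their values were seen. The result of 1 gene that the rule takes is not reported here. The alternatives were another background correction, scaling, filter, probe rule and slide position, the value table, and each array left out. The files hold no mean signal, so normexp used the median signal with an offset of 50, which was added after seeing the data.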

Additional observations from a re-analysis of the deposited data

Results flagged for a closer look

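Of 66 sets of 4 arrays (33 genes in 2 groups), 2 held an array far from the other 3, where chance gives about 5% of sets. In H4c11, control array 3 had a log2 signal of 2.87, against 3.08 to 3.11 on the other control arrays. In H2ac23, mimic array 5 had 6.77, against 6.99 to 7.00 on the other mimic arrays. Both genes fell with the mimic under each of the 19 alternatives, also without that array.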

How the results depend on the processing

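No tested clustered histone gene changed sign under any of the 19 alternatives in which it was fitted. Leaving out 1 array at a time gave 25 to 26 falling and 5 to 6 rising genes and a median log2 fold change from -1.29 to -1.21. Within slide row 1, which has 2 arrays per group, 1 member rose, and within row 2, 3 did, with a median of -1.41. In the 3′ end formation list the count that rose was 2 with quantile normalization, 0 with no filter on dim probes, 0 with slide column as a block, and 0 within either row. It ranged from 0 to 1 with 1 array left out. The count that fell there was 1 within row 1 and 1 within row 2. Among chaperones, 0 rose within either row and 10 fell within row 2. Of histone genes outside the clusters 5 fell within row 2, and of macrophage markers 1 rose within row 2. Within-row counts rest on fewer arrays, which lowers the number of genes that pass.

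With no filter on dim probes, H2ac21 and H3c1 fell too, although neither was well above background on any array, and H4c9 no longer passed. Blocking on slide column left 24 falling members, without H4c9 and H3c4. With the filter set to all 8 arrays, 29 members were tested, 24 fell and 4 rose. Normexp gave smaller changes for dim genes, since its offset draws low signals together. Dim signals near background therefore limit H3c7, H3c8, H3c11, H1f1, H2ac1, H2bc6, H2bc23 and H4c17, and H1f0 and H1f10 outside the clusters. No paired analysis was possible because the labels do not say which samples, if any, belong together.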
